A study of Mus musculus with 7 samples.

Results

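The PGC-1 coactivators and the mitochondrial regulators around them were described here as a set of 10 genes in electrically stimulated mouse myotubes. The members were the 3 coactivator genes *Ppargc1a*, *Ppargc1b* and *Pprc1*, the nuclear receptor genes *Esrra*, *Esrrg*, *Ppara* and *Ppard*, the transcription factor genes *Nrf1* and *Tfam*, and the deacetylase gene *Sirt1*. They were chosen by symbol with earlier results of these data known, though by no threshold on a measured value, and all 10 were found among the 26607 listed genes. The C2C12 line consists of immortalised mouse myoblasts, which leave the cell cycle and merge into contractile myotubes once serum is lowered. C2C12 myotubes 3 days into differentiation were used, and no genetic change or other treatment was named for either. The control group of 3 libraries, numbered 1, 3 and 4, had no treatment, and the group of 4 libraries numbered 1 to 4 received electrical pulse stimulation (EPS) during 24 h and then rested for 1 h. EPS paces the myotubes with a field between electrodes, in a dish without nerve, blood supply or other organs. The labels do not say whether libraries came from separate cultures, so the p-values measure only the spread between these libraries, which may be technical.

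PGC-1 proteins do not bind DNA themselves. They dock on DNA-bound factors, among them the estrogen-related receptors (ERRs), the PPARs and NRF1, and raise the transcription of genes for respiration, fatty acid oxidation and mitochondrial upkeep. NRF1 and its partners act on *Tfam*, whose product packs and transcribes mitochondrial DNA, and SIRT1 removes acetyl groups from PGC-1α. In skeletal muscle, *Ppargc1a* is known for its short-lived induction by contraction, through calcium, AMPK and CREB signalling, and mRNA levels do not show the phosphorylation or deacetylation by which the protein is also controlled.

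The windows upstream of gene starts are shown because *Ppargc1a* is the gene that contraction signals are known to reach through CREB, and *Esrra* encodes ERRα, the receptor through which PGC-1α is best known to act on respiratory genes. Both are from RefSeq on GRCm38.p6, printed 5′ to 3′ on the minus strand, the strand of either gene, and trimmed to the bases upstream of the GENCODE gene start, which leaves 249 and 245 bases. The capitals mark CGTCA in the *Ppargc1a* window, which reads TGACG on the other strand and is the core of the cAMP response element. In the *Esrra* window they mark GCATGCGC, the core of the NRF1 motif.
Ppargc1a, chr5:51567727-51567975: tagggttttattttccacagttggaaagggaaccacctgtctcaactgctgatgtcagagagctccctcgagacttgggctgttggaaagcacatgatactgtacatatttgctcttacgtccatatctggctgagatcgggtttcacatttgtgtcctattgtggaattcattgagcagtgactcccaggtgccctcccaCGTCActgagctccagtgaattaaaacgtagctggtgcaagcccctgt
Esrra, chr19:6921814-6922058: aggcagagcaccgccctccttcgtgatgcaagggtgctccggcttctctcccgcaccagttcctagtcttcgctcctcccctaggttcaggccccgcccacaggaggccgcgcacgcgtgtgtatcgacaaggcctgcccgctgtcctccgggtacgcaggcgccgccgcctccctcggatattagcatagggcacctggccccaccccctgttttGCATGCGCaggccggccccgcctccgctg

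Of the 10 members, 9 matched the RefSeq windows, with 13 windows among them, and the exception was *Ppargc1b*. The 250 bases before each start were searched on both strands and set beside all 32851 windows of that kind. A member counts if any of its windows matches, while the shares are per window, so members with several windows have more chances to match. TGACG was found for 3 members, *Ppargc1a*, *Ppara* and *Sirt1*, and in 17.8% of all windows. GCATGCGC was found for *Esrra* and *Ppara* and in 2.26% of all windows. The nuclear receptor half-site AGGTCA was found for *Pprc1* alone among the members and in 14% of all windows. CCGGAAG, a core bound by the ETS factor GABP, was found for *Tfam* alone among the members and in 6.91% of all windows. The letters of none of the 4 motifs contain those of another on either strand, and a match is a description of letters, not of binding.

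Values are CPM, the reads of a gene scaled to a common library total over all listed genes. Total reads ran from 16616917 to 22120641, and 3 reads, taken as the smallest count told from 0, stood at 0.136 to 0.181 CPM, which allows for counting error only. Control replicate 4 stood apart, where 359 genes had 1 to 5 reads while every other library had 2670 to 3181 of them, so low members are given below with their reads and also without it. All 12 myotube markers were present, with summed levels of 18278 to 21559 CPM in the control libraries and 12694 to 19675 CPM in the EPS libraries. The 8 myoblast and cycling markers summed to 393 to 468 CPM in the control group and 457 to 1046 CPM in the EPS group. That sum mixes genes that went both ways on log2(CPM + 1), with 6 of 8 higher in the EPS group and 2 lower, among them *Myod1*. In bulk RNA, fewer cells of a type and less RNA per cell cannot be told apart. The 5 adipocyte markers reached at most 0.181 CPM in sum, with *Plin1*, *Lep* and *Retn* at 0 in every library, and the 7 markers of endothelial, blood and nerve cells at most 0.904 CPM, with *Adgre1*, *Cd3e* and *Syt1* at 0 in every library.

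None of the 10 members rose or fell in the EPS group at an unadjusted P under 0.01 (limma on log2(CPM + 1)), the threshold used here for a change, while 4.17% of the 19144 genes tested passed it. No member passed that P with a change of more than 2-fold, which 1.41% of the genes did, and none had a Benjamini-Hochberg adjusted p under 0.05, which 0.141% did. At an unadjusted P under 0.05, 1 of the 10 members passed by limma, *Esrrg*, beside 11.6% of all genes. By edgeR's quasi-likelihood test and by DESeq2, 0 of the 10 passed at an unadjusted P under 0.05, beside 11.6% and 10.6% of all genes. The difference in log2(CPM + 1), EPS minus control, ran from -0.33 for *Pprc1* to 0.58 for *Esrrg*, with a median of 0.06 over the members and 0.04 over all genes tested. It was above 0 for 6 members and below 0 for 4 as the CPM were deposited, and 5 against 5 after quantile normalization or median-of-ratios scaling. The members' median was -0.04 under quantile normalization and -0.05 under median-of-ratios scaling. Over the 12256 genes with a mean of at least 1 CPM the median difference was 0.10 as deposited, 0.0052 under quantile normalization and -0.0048 under median-of-ratios scaling, so differences near 0.10 are at the level of the typical gene.

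**Figure D1:**
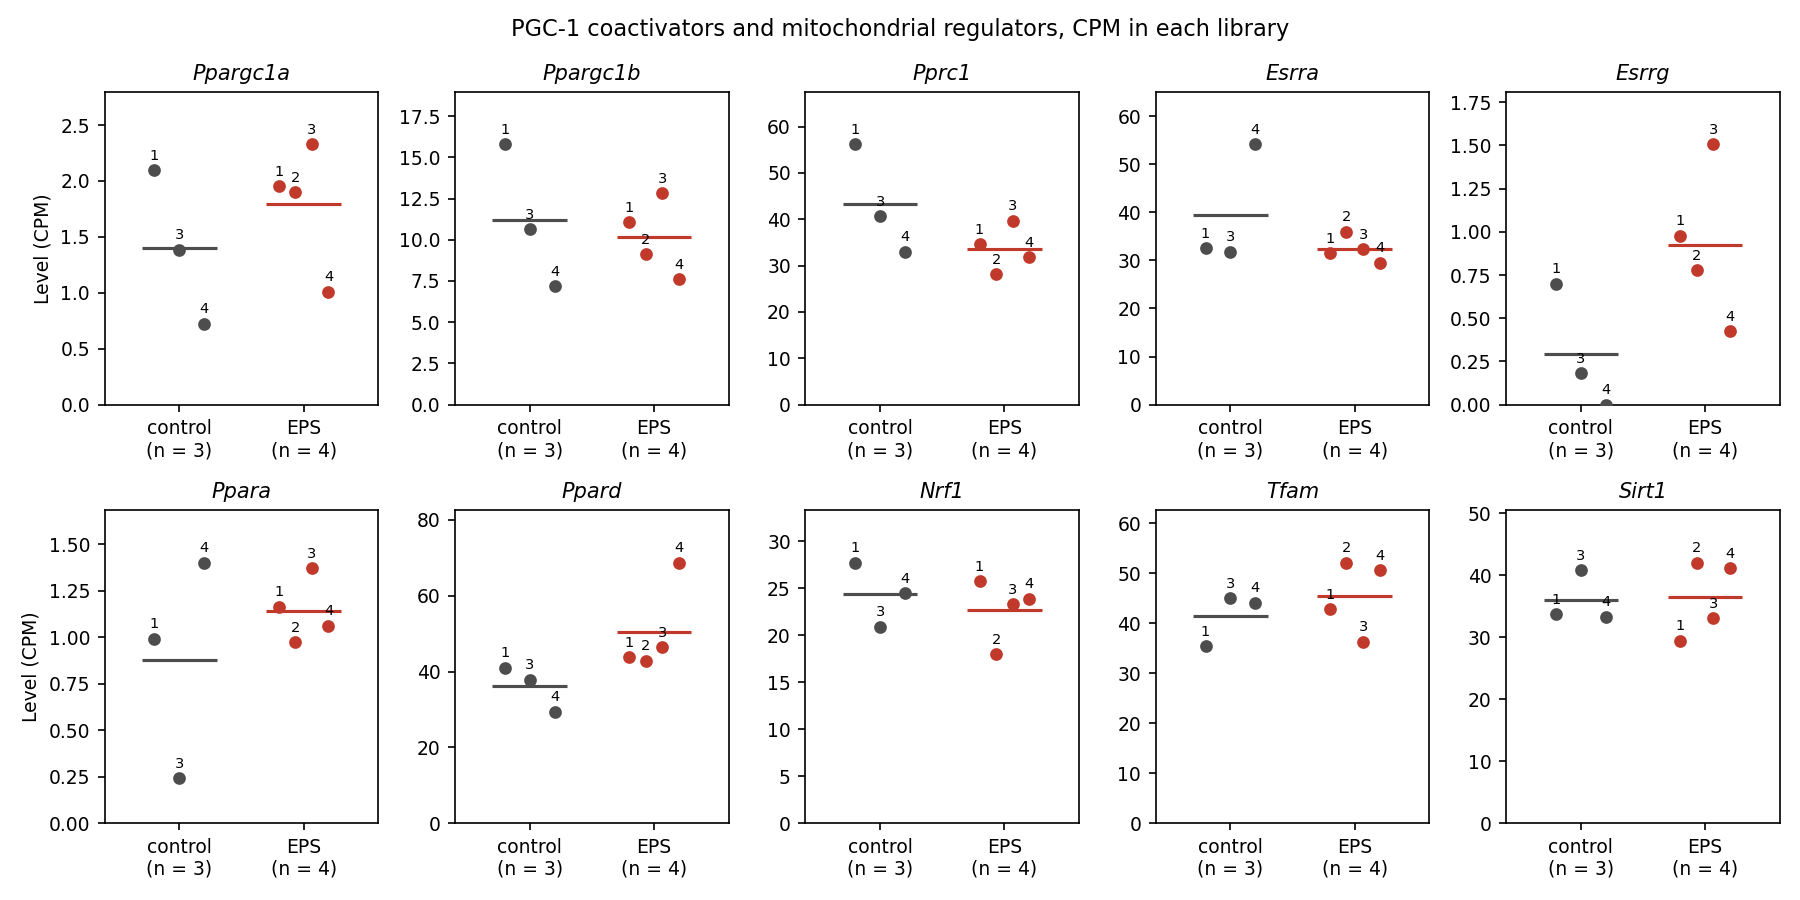
CPM of the 10 members in the 3 control and 4 EPS libraries, one panel per gene, with each point a library, numbered by replicate, and the line the group mean. The control and EPS points overlap in 9 panels, and only the *Ppard* points do not, with 29.4 to 41.0 CPM in the control group and 42.9 to 68.7 CPM in the EPS group.

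*Ppargc1a*, which encodes the founding coactivator PGC-1α, was scarce in both groups. The gene (ENSMUSG00000029167.13) lies on chromosome 5 of GRCm38 from 51454250 to 51567726 on the minus strand. Its level was 2.10, 1.38 and 0.723 CPM in control replicates 1, 3 and 4, from 36, 23 and 16 reads. In EPS replicates 1 to 4 it was 1.96, 1.90, 2.33 and 1.01 CPM, from 42, 39, 51 and 19 reads. EPS replicate 3 was above every control library, and the other 3 EPS libraries lay within the control range. The means were 1.40 ± 0.688 CPM (SD, n = 3) and 1.80 ± 0.560 CPM (SD, n = 4). The difference was 0.24 on the log2 scale (SE 0.25, 95% interval -0.34 to 0.81), with P = 0.377 by limma, adjusted p = 0.779, and 0.429 by an exact permutation test. The interval is bounded above by less than a 2-fold difference on this scale, which a pseudocount of 1 compresses for a gene at this level. Over left-out libraries the difference ran from 0.018 without control replicate 4 to 0.44 without control replicate 1, and it was 0.39 with a pseudocount of 0.1.

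*Ppargc1b* encodes PGC-1β, a close relative that shares much of PGC-1α's partner set and is known for supporting basal mitochondrial content. The gene (ENSMUSG00000033871.14) is on chromosome 18 from 61298136 to 61400431, minus strand. It stood at 15.8, 10.7 and 7.19 CPM in control replicates 1, 3 and 4 and at 11.1, 9.11, 12.8 and 7.59 CPM in EPS replicates 1 to 4. Every EPS value lay within the control range. The group means were 11.2 ± 4.33 CPM (SD, n = 3) in control and 10.2 ± 2.29 CPM (SD, n = 4) in EPS myotubes. The log2 difference was -0.09 (SE 0.30, 95% interval -0.78 to 0.59; limma P = 0.767, adjusted p = 0.917, exact permutation p = 0.800), and it ran from -0.35 without control replicate 4 to 0.17 without control replicate 1.

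*Pprc1* encodes PRC, the member of the family known as a growth-regulated coactivator. It is annotated on chromosome 19 from 46044886 to 46072915 on the plus strand (ENSMUSG00000055491.14). Its level was 56.2, 40.6 and 33.0 CPM in the control libraries and 34.6, 28.2, 39.6 and 31.8 CPM in the EPS libraries. EPS replicates 2 and 4 were below every control library, and control replicate 4 was within the EPS range. The means were 43.3 ± 11.8 CPM (SD, n = 3) and 33.6 ± 4.85 CPM (SD, n = 4), a log2 difference of -0.33 (SE 0.21, 95% interval -0.81 to 0.14; limma P = 0.146, adjusted p = 0.593, exact permutation p = 0.200). Without control replicate 4 the difference was -0.51 with a limma P of 0.0343, and the groups no longer overlapped, while without control replicate 1 it was -0.13 with a limma P of 0.544.

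The 3 coactivators had the same libraries at several ends of their ranges. Control replicate 1 was the highest and control replicate 4 the lowest control library for each of them, and EPS replicate 3 was the highest EPS library for each. The lowest EPS library was EPS replicate 4 for *Ppargc1a* and *Ppargc1b* and EPS replicate 2 for *Pprc1*. Over all 10 members, control replicate 1 was the highest control library for 6, control replicate 4 the lowest for 6, and EPS replicate 3 the highest EPS library for 5. The values of a library share 1 total, so the members' orders are not independent of each other.

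*Esrra* encodes ERRα, an orphan receptor that binds DNA without a known natural hormone. The gene (ENSMUSG00000024955.14) is on chromosome 19 from 6910977 to 6921813, minus strand. Its level was 32.5 and 31.8 CPM in control replicates 1 and 3 and 54.2 CPM in control replicate 4. The EPS libraries held 31.5, 36.0, 32.3 and 29.5 CPM. Thus 6 of the 7 libraries lay close together, and control replicate 4 was far above them. The means were 39.5 ± 12.7 CPM (SD, n = 3) and 32.3 ± 2.69 CPM (SD, n = 4), and the log2 difference was -0.24 (SE 0.21, 95% interval -0.72 to 0.23; limma P = 0.280, adjusted p = 0.716, exact permutation p = 0.371). Over left-out libraries it ran from -0.37 without control replicate 3 to 0.0047 without control replicate 4.

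*Esrrg* encodes ERRγ, a receptor known for driving the oxidative programme of slow muscle and heart. The gene (ENSMUSG00000026610.13) spans 187608791 to 188214885 on chromosome 1, plus strand. It was near the limit of counting, at 0.700, 0.181 and 0 CPM in control replicates 1, 3 and 4, from 12, 3 and 0 reads. For counting error alone a 0 allows up to 0.136 CPM, but control replicate 4 also listed *Esrrb*, *Perm1* and *Camk4* at 0 where control replicates 1 and 3 had 15 to 34 reads, so that limit does not bound the level there. The EPS libraries held 0.978, 0.779, 1.51 and 0.425 CPM, from 21, 16, 33 and 8 reads. EPS replicates 1 to 3 were above every control library, and EPS replicate 4 was below control replicate 1. The means were 0.293 ± 0.363 CPM (SD, n = 3) and 0.922 ± 0.452 CPM (SD, n = 4). The log2(CPM + 1) difference was 0.58 (SE 0.22, 95% interval 0.07 to 1.08), with a limma P of 0.0292, an adjusted p of 0.360 and an exact permutation p of 0.114, so it did not pass the threshold.

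The size of the *Esrrg* difference turned on the handling of low values and on single control libraries. A pseudocount of 1 pulls low genes toward no difference, and with 0.1 in its place the value was 1.75. On recovered reads it was 1.59 by edgeR with a P of 0.0700 and 1.58 by DESeq2 with a P of 0.0740. Without control replicate 4, the library short of low-count genes, the difference was 0.41 with a limma P of 0.115. Without control replicate 1 it was 0.79 with a limma P of 0.00486 and an adjusted p of 0.232, against 0.232 to 0.661 over all its alternatives, the only alternative in which a member passed an unadjusted P under 0.01, beside 3.45% of all genes in that fit.

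*Ppara*, which encodes the PPAR that fatty acids activate in liver and oxidative muscle, was also scarce. It is on chromosome 15 from 85734983 to 85802819 on the plus strand (ENSMUSG00000022383.13). The control libraries were spread widely, at 0.991, 0.241 and 1.40 CPM from 17, 4 and 31 reads. The EPS libraries were close together, at 1.16, 0.974, 1.37 and 1.06 CPM from 25, 20, 30 and 20 reads, and all lay within the control range. The means were 0.878 ± 0.589 CPM (SD, n = 3) and 1.14 ± 0.170 CPM (SD, n = 4), and the log2 difference was 0.24 (SE 0.22, 95% interval -0.25 to 0.73; limma P = 0.296, adjusted p = 0.720, exact permutation p = 0.457). Without control replicate 3, the lowest, it was -0.03, and without control replicate 4, the highest, 0.44 with a limma P of 0.0516.

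*Ppard* encodes PPARδ, the most widely expressed PPAR and the main one of skeletal muscle. The gene (ENSMUSG00000002250.16) is on chromosome 17 from 28232700 to 28301474, plus strand. It was at 41.0, 37.9 and 29.4 CPM in control replicates 1, 3 and 4, and at 43.8, 42.9, 46.5 and 68.7 CPM in EPS replicates 1 to 4. The EPS values began above the highest control value, by little for 3 libraries and by far for EPS replicate 4. *Ppard* was the only member whose groups did not overlap, 1 of 10 beside 10.6% of all genes tested, or 7.76% counting only those higher in EPS libraries. The means were 36.1 ± 6.0 CPM (SD, n = 3) and 50.5 ± 12.3 CPM (SD, n = 4). The log2 difference was 0.46 (SE 0.21, 95% interval -0.01 to 0.93; limma P = 0.0555, adjusted p = 0.444, exact permutation p = 0.0571). Either rescaling, quantile or median-of-ratios, ended the separation, and the difference was 0.30 without EPS replicate 4. Of the 7 libraries, EPS replicate 4 had the lowest summed myotube markers, at 12694 CPM. It also had the highest summed myoblast and cycling markers, at 1046 CPM. The part of these markers in the *Ppard* value was not tested.

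**Figure D2:**
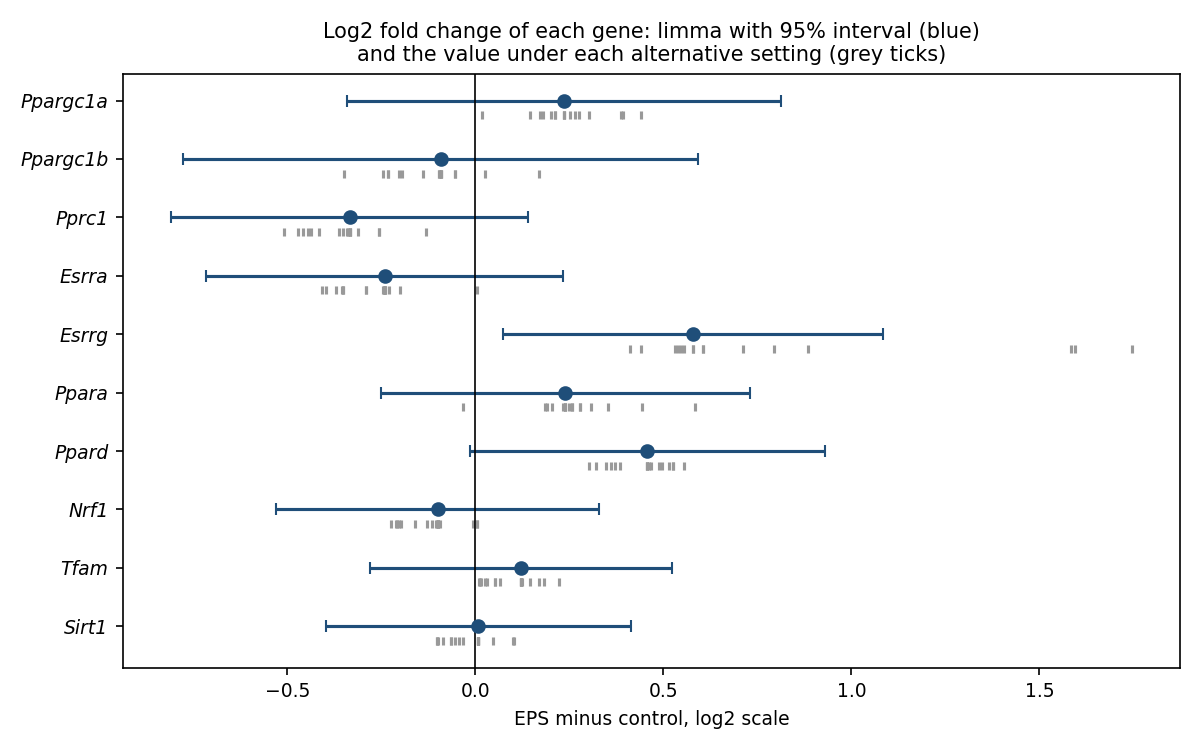
Difference in log2(CPM + 1), EPS minus control, for the 10 members, with the limma estimate as a point, its 95% interval as a line and the value under each alternative setting as a grey tick. The interval of *Esrrg*, 0.07 to 1.08, lies above 0, and those of the other 9 members include 0.

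Neither *Nrf1* nor *Tfam* passed the test. *Nrf1* encodes nuclear respiratory factor 1, not the NFE2-like factor of the same abbreviation, and is on chromosome 6 from 30047988 to 30153458, plus strand (ENSMUSG00000058440.14). It was at 27.8, 20.9 and 24.5 CPM in the control libraries and at 25.7, 18.0, 23.3 and 23.9 CPM in the EPS libraries, and the ranges overlapped. The means were 24.4 ± 3.41 CPM (SD, n = 3) and 22.7 ± 3.34 CPM (SD, n = 4), a log2 difference of -0.10 (SE 0.19, 95% interval -0.53 to 0.33; limma P = 0.610, adjusted p = 0.869, exact permutation p = 0.600). Over left-out libraries it ran from -0.20 without control replicate 3 to 0.0035 without EPS replicate 2.

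*Tfam* encodes the protein that packs mitochondrial DNA and starts its transcription. It is on chromosome 10 from 71225464 to 71238280 on the minus strand (ENSMUSG00000003923.14). Its level was 35.4, 45.0 and 44.1 CPM in control and 42.8, 52.1, 36.3 and 50.7 CPM in EPS libraries. EPS replicates 2 and 4 were above every control library and the other two were within the control range. The means were 41.5 ± 5.29 CPM (SD, n = 3) and 45.5 ± 7.36 CPM (SD, n = 4), and the log2 difference was 0.12 (SE 0.18, 95% interval -0.28 to 0.52; limma P = 0.510, adjusted p = 0.825, exact permutation p = 0.571). It was 0.01 to 0.03 under both rescalings and by edgeR and DESeq2, and 0.01 without control replicate 1 to 0.22 without EPS replicate 3 over left-out libraries.

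*Sirt1* encodes the NAD-dependent deacetylase that acts on PGC-1α. The gene (ENSMUSG00000020063.16) lies on chromosome 10 from 63319005 to 63381704, minus strand. It was at 33.8, 40.9 and 33.3 CPM in the control libraries and at 29.4, 42.0, 33.1 and 41.2 CPM in the EPS libraries, so the EPS libraries reached both above and below the control range. With means of 36.0 ± 4.23 CPM (SD, n = 3) and 36.4 ± 6.17 CPM (SD, n = 4), the log2 difference was 0.0081 (SE 0.18, 95% interval -0.40 to 0.41; limma P = 0.965, adjusted p = 0.986, exact permutation p = 0.943). The sign was negative under both rescalings, at -0.10 by either, and by edgeR and DESeq2. The intervals of *Nrf1*, *Tfam* and *Sirt1* are the narrowest among the members.

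Spread among control libraries differed between members. The highest control library exceeded the lowest 5.82-fold for *Ppara* and 2.9-fold for *Ppargc1a*, against 1.23-fold for *Sirt1* and 1.27-fold for *Tfam*. *Esrrg* has no such ratio in the control group, because it was at 0 CPM in control replicate 4. Among EPS libraries the same ratio was 3.55 for *Esrrg*, the widest, and 1.22 for *Esrra*, the narrowest. Genes with few reads were the most spread, apart from *Ppara* in the EPS group, at 1.41.

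To compare levels between genes, CPM were divided by the kilobases of annotated exon of each gene. *Tfam* was highest in control myotubes at 9.36 ± 1.19 CPM per kb (SD, n = 3), followed by *Esrra* at 9.0 ± 2.90, *Pprc1* at 6.88 ± 1.89, *Sirt1* at 6.75 ± 0.794 and *Ppard* at 4.81 ± 0.799 CPM per kb. *Ppargc1b* at 2.81 ± 1.09 and *Nrf1* at 2.37 ± 0.331 CPM per kb were lower. *Ppara* at 0.229 ± 0.153, *Ppargc1a* at 0.213 ± 0.104 and *Esrrg* at 0.0473 ± 0.0585 CPM per kb were the lowest. *Ppargc1b* was thus the more abundant of the paired coactivators PGC-1α and PGC-1β in every library, and ERRα transcripts far outnumbered those of ERRγ. Neighbours in this order overlapped between libraries except *Sirt1* over *Ppard* and *Nrf1* over *Ppara*.

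In EPS myotubes the order began with *Tfam* at 10.2 ± 1.66 CPM per kb (SD, n = 4) and *Esrra* at 7.36 ± 0.613 CPM per kb. *Sirt1* at 6.83 ± 1.16, *Ppard* at 6.72 ± 1.63 and *Pprc1* at 5.34 ± 0.771 CPM per kb came next. *Ppargc1b* stood at 2.54 ± 0.573, *Nrf1* at 2.21 ± 0.325, *Ppara* at 0.298 ± 0.0444, *Ppargc1a* at 0.273 ± 0.0849 and *Esrrg* at 0.149 ± 0.0728 CPM per kb. The last 3 genes and their order were the same as in control myotubes. Neighbours overlapped between EPS libraries except *Pprc1* over *Ppargc1b* and *Nrf1* over *Ppara*. The order of the first 7 genes depends on the length used, and the exons of *Nrf1*, for example, cover 10282 bp together and 4042 bp in its longest transcript. By the longest transcript, *Esrra* was first in control and *Ppard* in EPS myotubes, and the last 3 genes stayed in place.

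**Figure D3:**
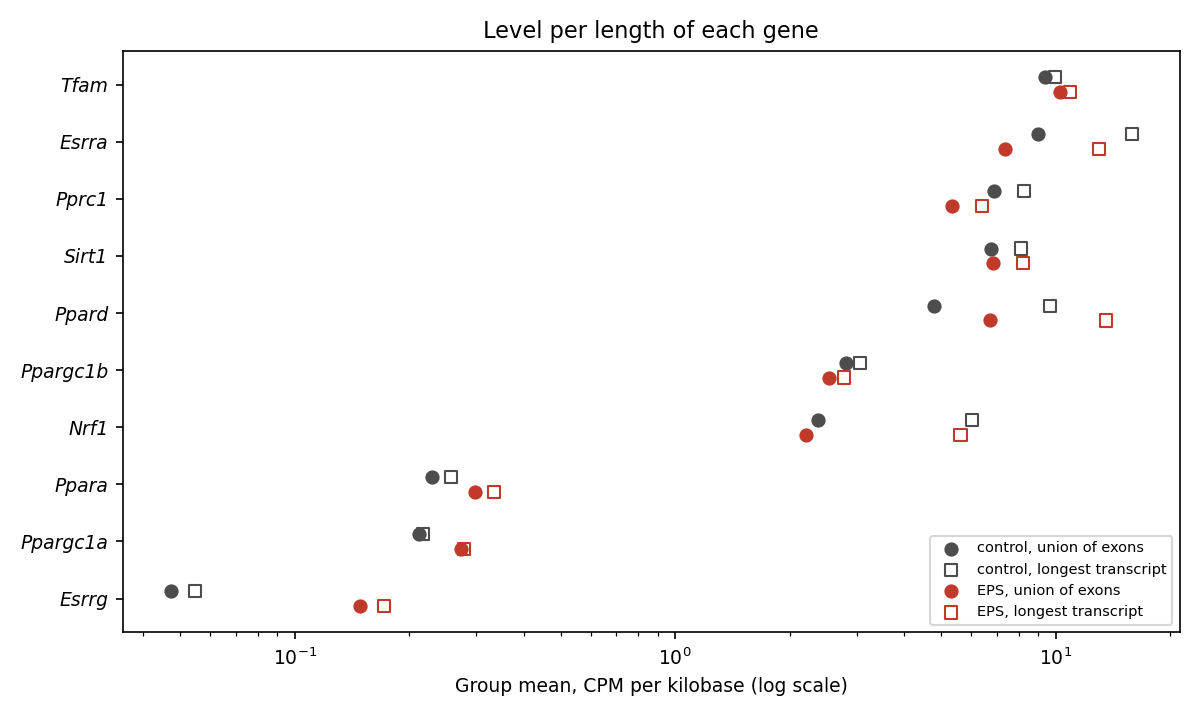
CPM per kilobase of exon of the 10 members on a log axis, as group means in control and EPS myotubes, by the union of exons (filled circles) and by the longest transcript (open squares). *Ppara*, *Ppargc1a* and *Esrrg* lie below 1 CPM per kb in both groups and the other 7 members above it.

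The genes whose log2(CPM + 1) followed that of *Ppargc1a* most closely over the 7 libraries were *Tgfbr3*, a TGF-β co-receptor gene (Pearson r = 0.990), *Clcn7*, a lysosomal chloride transporter gene (r = 0.988), and *Ubr3*, a ubiquitin ligase gene (r = 0.986). They were picked as the highest of 12255 genes with a mean of at least 1 CPM, so high values follow from the search itself, and all points share library totals. Among the other 9 members, whatever their level, *Esrrg* was the most like it (r = 0.887), although its mean was below 1 CPM and it was outside that search. *Ppargc1b* followed (r = 0.837), *Pprc1* had r = 0.394, and *Esrra* had r = -0.570. These correlations are descriptions over 7 libraries.

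The wider pathway was read from lists of genes by role, of which 149 genes were tested outside the members. Of these, 6 passed an unadjusted P under 0.01, or 4.03%, beside 4.17% of all genes. The 6 were in 2 lists, genes known as PPAR targets and genes of the signalling upstream of PGC-1. All 6 are named below, none with an adjusted p under 0.05 by limma on log2(CPM + 1), although that of *Pdk4* was 0.0372 among genes with a mean of at least 1 CPM and 0.0425 with a pseudocount of 0.1, in a range of 0.00118 to 0.510 over its alternatives.

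The PPAR target list had 24 tested genes. *Pdk4*, *Cpt1a* and *Plin2* rose, *Cd36* fell, and the other 20 did not pass, so 16.7% of the list passed beside 4.17% of all genes tested (2.83% that rose and 1.34% that fell). The median log2 difference of the list was 0.12, beside 0.04 over all genes tested. Under either rescaling, quantile or median-of-ratios, the list's median was 0.06.

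*Pdk4* encodes the kinase that shuts pyruvate dehydrogenase and spares glucose. It was at 23.4, 29.8 and 26.9 CPM in the control libraries and at 45.2, 59.1, 49.1 and 61.0 CPM in the EPS libraries. The lowest EPS value was well above the highest control value. The means were 26.7 ± 3.21 CPM (SD, n = 3) and 53.6 ± 7.65 CPM (SD, n = 4), and *Pdk4* rose by 0.97 on the log2 scale (SE 0.17, 95% interval 0.59 to 1.36; limma P = 0.000284, adjusted p = 0.0730, exact permutation p = 0.0286). That permutation p is the smallest that 35 splits can give. It passed an unadjusted P under 0.01 in all 17 alternatives that tested it.

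*Cpt1a* encodes the enzyme by which long-chain fatty acids enter mitochondria. It was at 58.4, 58.9 and 43.9 CPM in the control group and at 89.7, 76.0, 87.3 and 113 CPM in the EPS group, without overlap. It rose from a control mean of 53.7 ± 8.54 (SD, n = 3) to an EPS mean of 91.5 ± 15.4 CPM (SD, n = 4), by 0.76 on the log2 scale (SE 0.18; limma P = 0.00239, adjusted p = 0.146, exact permutation p = 0.0286), and passed in 16 of 17 alternatives. The exception was the replicate block, with a limma P of 0.0171. *Plin2*, which encodes a coat protein of lipid droplets, was at 119, 126 and 83.5 CPM in control and 171, 188, 161 and 202 CPM in EPS libraries. It rose from a control mean of 110 ± 22.9 (SD, n = 3) to an EPS mean of 180 ± 18.2 CPM (SD, n = 4), by 0.73 (limma P = 0.00293, adjusted p = 0.159, exact permutation p = 0.0286), and passed in 14 of 17 alternatives, with a P of 0.0101 without EPS replicate 4 and 0.0107 by edgeR among those it missed.

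*Cd36*, which encodes a fatty acid transporter of the cell surface, went the other way. It was at 55.8, 100 and 36.3 CPM in the control libraries and at 27.0, 35.7, 22.7 and 17.8 CPM in the EPS libraries, which all lay below the lowest control library, EPS replicate 2 by little. It fell from a control mean of 64.1 ± 32.7 (SD, n = 3) to an EPS mean of 25.8 ± 7.58 CPM (SD, n = 4), a log2 difference of -1.20 (SE 0.34, 95% interval -1.98 to -0.42; limma P = 0.00718, adjusted p = 0.219, exact permutation p = 0.0286). *Cd36* was the only gene of these lists past both the P-value and the 2-fold thresholds. It passed in 11 of 17 alternatives. Its limma P was above 0.01 with no filter on low values, and without control replicate 1 or 3 or EPS replicate 1, 3 or 4, the smallest difference being -0.82 without control replicate 3. Its adjusted p was 0.00917 by edgeR and 0.00184 by DESeq2, and ran from 0.00184 to 0.523 over all alternatives. In the same comparison the 5 adipocyte markers were at or near 0 in both groups, and the myotube markers had a median of -0.43. The myoblast and cycling markers had a median of 0.90, with 6 of 8 differences above 0 and 2 below. The part of the myotube, myoblast and cycling markers in the PPAR target values was not tested.

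**Figure D4:**
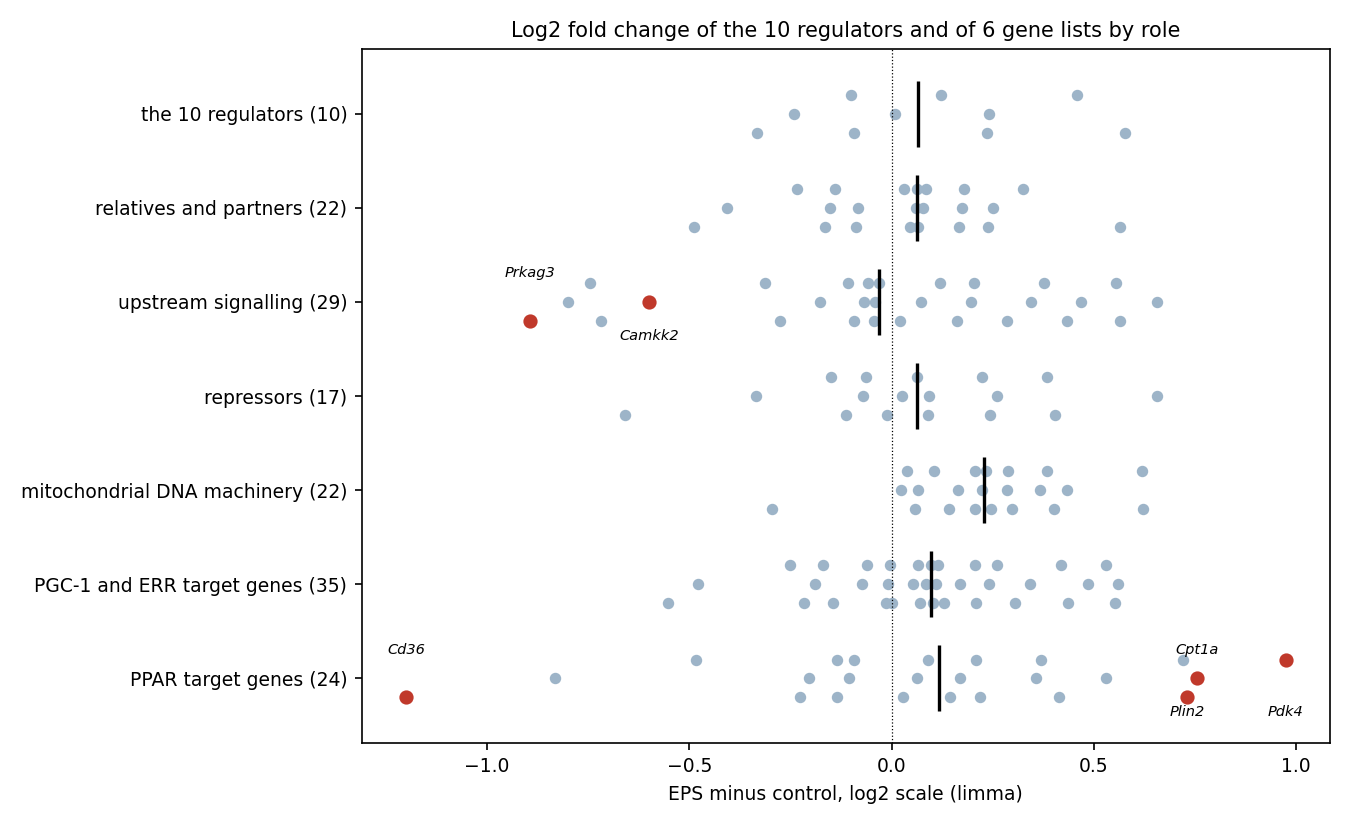
Difference in log2(CPM + 1), EPS minus control, for each tested gene of the members and of the lists by role, with each point a gene, the bar the list's median, and genes with P under 0.01 marked. Most points lie within 0.5 of 0, and the 6 marked genes are *Pdk4*, *Cpt1a* and *Plin2* above 0 and *Cd36*, *Prkag3* and *Camkk2* below 0.

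Of 29 genes of upstream signalling, comprising genes of AMPK, calcium, p38 MAP kinase and CREB signalling, other sirtuins, *Nampt*, *Mef2c* and *Mef2d*, 2 fell, 0 rose and 27 did not pass, so 6.9% of the list passed beside 4.17% of all genes tested (1.34% that fell). The list's median was -0.03 as deposited, -0.11 under quantile normalization and -0.14 under median-of-ratios scaling. At a limma P under 0.05, 3 of the 29 were higher and 4 lower in EPS libraries, beside 8.4% and 3.21% of all genes. Among those higher were the AMPK genes *Prkaa1* (log2 difference 0.38, limma P = 0.0319, adjusted p = 0.368, exact permutation p = 0.0286) and *Prkaa2* (0.56, limma P = 0.0449). For *Prkaa1* all 4 EPS libraries were above every control library. *Prkag3* encodes the muscle-specific regulatory γ3 subunit of AMPK, and was at 114, 106 and 122 CPM in control and 69.0, 67.4, 68.9 and 42.2 CPM in EPS libraries. It fell from a control mean of 114 ± 7.65 (SD, n = 3) to an EPS mean of 61.9 ± 13.1 CPM (SD, n = 4), a log2 difference of -0.89 (SE 0.20, 95% interval -1.34 to -0.45; limma P = 0.00143, adjusted p = 0.120, exact permutation p = 0.0286), and it passed in 16 of 17 alternatives. The exception was the replicate block, with a limma P of 0.0146. *Camkk2* encodes a calcium-activated kinase that phosphorylates AMPK, and was at 36.5, 32.9 and 34.3 CPM in control and 21.1, 21.0, 26.9 and 21.2 CPM in EPS libraries. It fell from a control mean of 34.6 ± 1.83 (SD, n = 3) to an EPS mean of 22.6 ± 2.92 CPM (SD, n = 4), a log2 difference of -0.60 (SE 0.16, 95% interval -0.97 to -0.23; limma P = 0.00500, adjusted p = 0.193, exact permutation p = 0.0286). *Camkk2* passed in 11 of 17 alternatives, and among the left-out libraries its limma P was above 0.01, at 0.0123 to 0.0241, without control replicate 1 or 3 or without EPS replicate 1, 2 or 4. Of the 12 myotube markers, 1 fell in the same comparison, or 8.33% beside 1.34% of all genes, *Actn2* (log2 difference -0.99; limma P = 0.00405, exact permutation p = 0.0286), and the median of those markers was -0.43. Of the 8 myoblast and cycling markers, 1 fell, or 12.5% beside that 1.34%, *Myod1* (log2 difference -0.88; limma P = 0.00955, exact permutation p = 0.0571), and 0 rose. The other markers of that list mostly went the other way, with 6 of 8 differences above 0, a median of 0.90, and 5 of 8, *Mki67*, *Top2a*, *Ccnb1*, *Cdk1* and *Bub1*, higher in EPS libraries at a limma P under 0.05, beside 8.4% of all genes in that direction. None of the tested adipocyte markers or markers of other cell types passed. The part of these markers in the *Prkag3* and *Camkk2* values was not tested.

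None of 22 relatives and partners of the members passed. Their median was 0.06 as deposited, -0.01 under quantile normalization and -0.04 under median-of-ratios scaling. The smallest P values were those of *Pparg*, the adipogenic PPAR (log2 difference 0.57, P of 0.104), and *Smarcd3*, a chromatin remodelling subunit gene (-0.49, P of 0.142), both by limma. *Smarcd3* stood at 135 CPM in control replicate 4 against 45.0 to 67.3 CPM in the other 6 libraries, and without that library the difference was -0.09. None of 17 repressors passed, with a median of 0.06 as deposited and -0.02 under either rescaling, quantile or median-of-ratios. *Fbxw7*, which encodes a ubiquitin ligase subunit that targets PGC-1α, was nearest, at 67.4 ± 15.0 CPM (SD, n = 3) in control and 42.0 ± 6.84 CPM (SD, n = 4) in EPS myotubes (log2 difference -0.66; limma P = 0.0106, adjusted p = 0.242, exact permutation p = 0.0286). It passed in 9 of 17 alternatives, among them the fit without control replicate 4 (log2 difference -0.85). Its adjusted p ran from 0.0295, by DESeq2, to 0.510 over the alternatives. *Parp2*, a consumer of NAD, had a difference of 0.40 with a limma P of 0.0925.

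None of the 22 genes of the mitochondrial DNA machinery passed, although 21 of them had a log2 difference above 0, as did 12123 of the 19144 genes tested. The median was 0.23 as deposited, 0.11 under quantile normalization and 0.12 under median-of-ratios scaling, when 17 and 16 genes were above 0. The summed level of the list was 495 to 538 CPM in the control libraries and 580 to 607 CPM in the EPS libraries, without overlap, but after either rescaling the ranges overlapped, at 507 to 565 and 539 to 596 CPM after quantile normalization. The smallest P values belonged to *Polg2*, the accessory subunit gene of the mitochondrial DNA polymerase (2.26 ± 0.392 CPM, SD, n = 3, against 4.08 ± 1.18 CPM, SD, n = 4; limma P = 0.0380, exact permutation p = 0.0571), and *Polrmt*, the mitochondrial RNA polymerase gene. *Polrmt* was the exception in sign, at 44.2, 42.3 and 53.1 CPM in control and 37.1, 37.1, 41.6 and 34.6 CPM in EPS libraries (log2 difference -0.30; limma P = 0.0769, exact permutation p = 0.0571). *Mterf1a* and *Mterf1b* are near-identical copies whose reads the counting could have split.

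None of 35 genes known as PGC-1 and ERR targets passed an unadjusted P under 0.01 by limma, and 5 passed 0.05, all with higher means in EPS myotubes, beside 8.4% of all genes in that direction. The list's median was 0.10 as deposited, 0.03 under quantile normalization and -0.02 under median-of-ratios scaling. *Sdhb*, a subunit gene of respiratory complex II, was at 78.6 ± 11.0 CPM (SD, n = 3) and 117 ± 23.4 CPM (SD, n = 4), a log2 difference of 0.56 with a limma P of 0.0181. Over left-out libraries its P ran from 0.00345 without EPS replicate 3 to 0.0713 without control replicate 1. *Ndufv1*, a subunit gene of complex I, was at 115 ± 30.5 CPM (SD, n = 3) and 167 ± 24.8 CPM (SD, n = 4), a log2 difference of 0.55 with a limma P of 0.0233. Its P ran from 0.00390 without control replicate 1 to 0.0816 without control replicate 4, and was also above 0.05 without control replicate 3 or EPS replicate 1, after median-of-ratios scaling and by edgeR and DESeq2. The 13 mRNAs encoded by mitochondrial DNA, which *Tfam* acts on, were not analysed here.

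**Figure D5:**
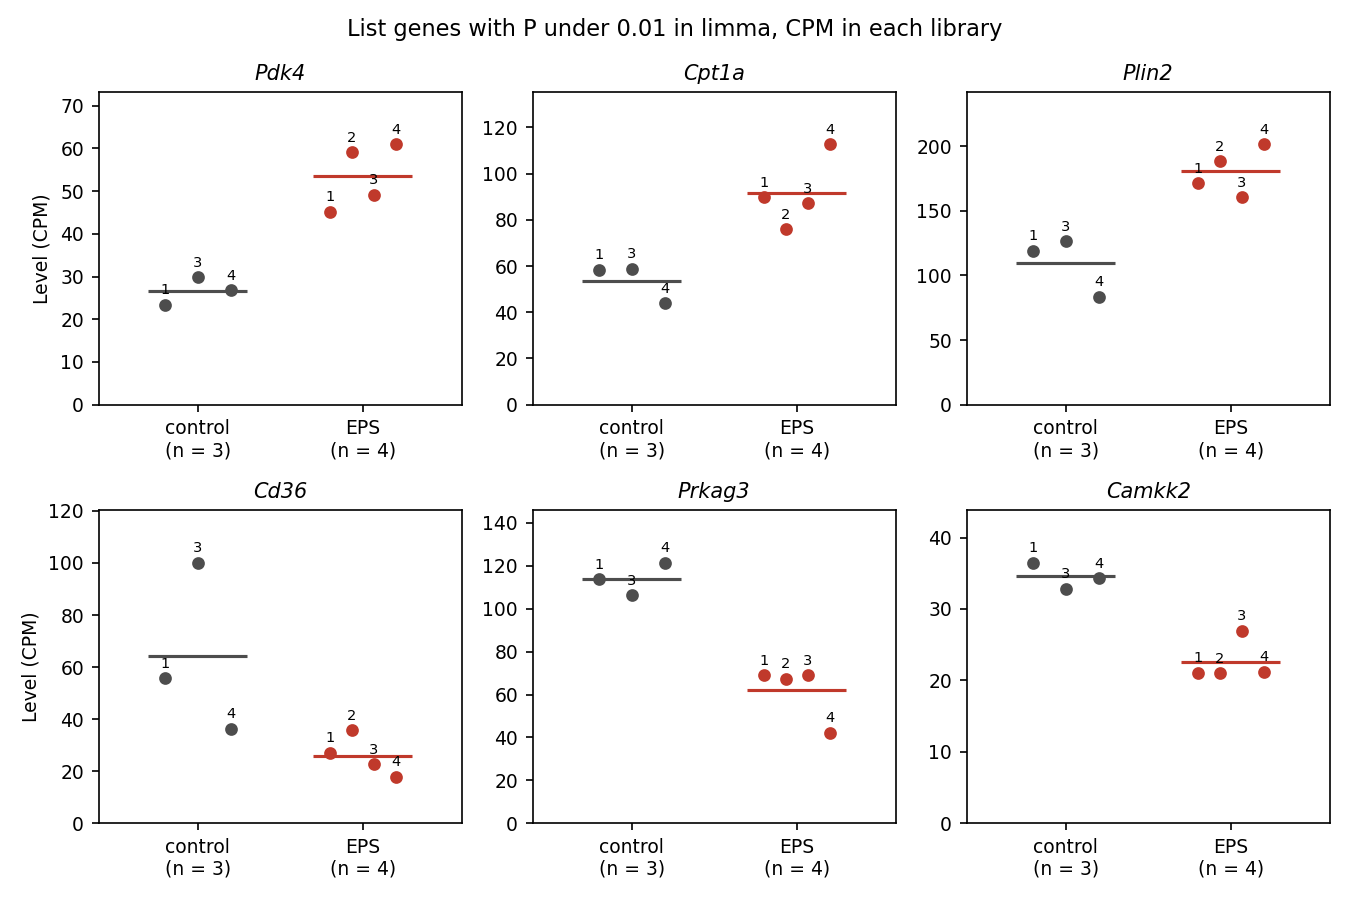
CPM in each control and EPS library of the 6 genes of the lists with P under 0.01, one panel per gene, each point a library and the line the group mean. In all 6 panels the EPS points lie on one side of the control points, above them for *Pdk4*, *Cpt1a* and *Plin2* and below them for *Cd36*, *Prkag3* and *Camkk2*.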

How the data were processed

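Poly(A) RNA of 7 C2C12 myotube libraries was sequenced as paired-end reads of 100 bp with a directional kit. The submitters' processing notes name STAR 2.5.4b and GRCm38. The values the authors deposited are CPM for 26607 listed genes, which is reads scaled to a common library total, and the read counter and its annotation are not given in the sources used here. In each library 100% of the values were whole multiples of 1 read within a tolerance of 0.01, and total reads ran from 16616917 to 22120641. The condition and replicate number of each library came from the sample labels.

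EPS was compared with control on log2(CPM + 1) for the 19144 genes with any read in the 7 libraries, with limma 3.58.1 in R 4.3.3 (empirical Bayes with a mean-variance trend, two-sided, Benjamini-Hochberg adjustment over all genes tested, no covariate). The pseudocount was 1. Single genes were also tested by an exact two-sided permutation test over all 35 splits of 3 against 4, whose smallest p is 0.0286. The study's methods name edgeR, but CPM are not counts, so edgeR 4.0.16 (quasi-likelihood) and DESeq2 1.42.0 were run on the recovered reads as alternatives, where they called 927 of 19144 and 949 of 19130 genes at P under 0.01, beside 798 by limma. The limma fit was also repeated with a pseudocount of 0.1 or 0.5, with genes under a mean of 1 CPM dropped, with no filter, after median-of-ratios scaling or quantile normalization, with robust empirical Bayes, with a replicate block, at a P threshold of 0.001, and without each library. The scripts were tested on simulated data. Coordinates and exon lengths are from GENCODE M21 on GRCm38, which may differ from the authors' annotation.

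The members and lists were chosen with earlier results of these data known, so no p was computed over a list. Named are all members, the genes of each list with P under 0.01, at most 4 of them, or else the 2 with the smallest P, and the 3 genes most like *Ppargc1a* over the libraries. The markers *Actn2*, *Myod1*, *Mki67*, *Top2a*, *Ccnb1*, *Cdk1* and *Bub1*, and *Esrrb*, *Perm1*, *Camk4*, *Prkaa1*, *Prkaa2*, *Nampt*, *Mef2c*, *Mef2d*, *Mterf1a* and *Mterf1b*, were named after their values were seen. The 13 mRNAs of the mitochondrial genome matched no listed symbol and were not analysed here.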

Additional observations from a re-analysis of the deposited data

Results flagged for a closer look

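In 24 sets of EPS values, the 4 libraries of each of the 10 members and of 14 named list genes, 3 had a library far from the other 3, by a gap that took up most of the range (Dixon's test at 95%). For independent sets of normal values, chance gives about 1 such gap in 20 sets. These sets share the same 4 libraries, and the 14 list genes were picked by their P. The 3 gaps are therefore not weighed against that rate. *Ppard* was at 68.7 CPM in EPS replicate 4, with a gap of 0.861 of the range above the others. *Prkag3* was at 42.2 CPM in EPS replicate 4, with a gap of 0.938 of the range below the others. That library had the lowest summed myotube markers (12694 CPM) and the highest summed myoblast and cycling markers (1046 CPM) of the 7. *Camkk2* was at 26.9 CPM in EPS replicate 3, with a gap of 0.976 of the range above the others, and still below every control library.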

How the results depend on the processing

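No member passed an unadjusted P under 0.01 under any alternative except 1, *Esrrg*, when control replicate 1 was left out (range over left-out libraries 0 to 1). The members without overlap were 0 after quantile normalization, 0 after median-of-ratios scaling, and ranged from 1 to 2 over left-out libraries, with 2 without control replicate 1, control replicate 4 or EPS replicate 4. For these settings no share over all genes is given, only the 10.6% with all libraries as deposited. Leaving out a library cannot end a separation and can add one, so a count of 2 is not read as a result. *Ppargc1a*, *Pprc1*, *Esrrg*, *Ppard* and *Tfam* kept their sign under every alternative that tested them. Signs turned for *Ppargc1b* (-0.35 to 0.17 over left-out libraries), *Esrra* (-0.37 to 0.0047), *Ppara* (-0.033 to 0.44), *Nrf1* (-0.20 to 0.0035, and 0.0035 with the replicate block) and *Sirt1* (-0.064 to 0.10). *Sirt1* was also at -0.10 by DESeq2, -0.087 by edgeR, -0.10 after quantile normalization, -0.10 after median-of-ratios scaling and -0.064 with the replicate block. The cause was not tested.

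Genes of the lists that rose numbered 3, 1 with the replicate block, and 2 to 5 over left-out libraries, with 5 without EPS replicate 3. Genes that fell numbered 3, 7 by DESeq2, 8 by edgeR, 5 after median-of-ratios scaling, 5 with a pseudocount of 0.1, and 1 to 4 over left-out libraries, with 1 without EPS replicate 1, EPS replicate 4, control replicate 1 or control replicate 3. Of all genes, in both directions together, 4.17% passed in the main fit, 4.96% by DESeq2, 4.84% by edgeR and 1.88% with the replicate block. The share was 3.45% without control replicate 1 and 3.56% without control replicate 4. For the other settings no share over all genes is given, so their counts of list genes are not read as results. Over the alternatives the adjusted p ran from 0.00118 to 0.510 for *Pdk4*, 0.0826 to 0.539 for *Cpt1a*, 0.0853 to 0.570 for *Plin2*, 0.00237 to 0.524 for *Prkag3* and 0.0295 to 0.568 for *Camkk2*. Same-numbered libraries had deviations correlated at 0.22, -0.41 and 0.07 for replicates 1, 3 and 4. Libraries of different number were not compared in this way, so these values cannot decide whether the libraries are paired. The labels do not say whether same-numbered libraries shared a culture or day. The replicate block, in which EPS replicate 2 has no partner and does not bear on the difference, called 360 genes in all at P under 0.01, beside 798. With it *Pdk4*, *Cd36* and *Fbxw7* passed, while *Prkag3* (P of 0.0146), *Camkk2* (0.0335), *Cpt1a* (0.0171) and *Plin2* (0.0378) did not, and *Sdhb* was at 0.110. *Esrrg*, *Ppara* and *Ppargc1a* had 0 to 51 reads a library, few enough for counting error to be part of their spread. *Ppargc1b*, with more reads, had the largest SE of the members on log2(CPM + 1), 0.30, a scale that compresses the spread of scarce genes.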
